A study of Mus musculus with 5 samples.

Results

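The regions described here are 16938 H3K27ac peaks that lie in the first-third stretch of long genes, the 5′-most of 3 equal parts, out of 124158 peaks in all (13.6%). A peak was taken when it was narrower than 3000 bp, when its midpoint fell in the first-third part of a protein-coding gene of at least 20 kb, and when it lay more than 3 kb from every protein-coding transcription start site (TSS). A further 360 peaks that met these criteria but also lay in the last-third part of another such gene were left out. The members fell in 5041 of the 10159 protein-coding genes of that length (49.6%), with a median of 2 and at most 89 in a gene.

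H3K27ac is an acetyl mark on histone H3 found at active promoters and active enhancers, and peaks of it away from a TSS are commonly read as enhancers. Many enhancers lie inside genes, often in the long first introns. Setd2 is the methyltransferase that places trimethylation on lysine 36 of histone H3 (H3K36me3). That mark is laid down by the enzyme travelling with elongating RNA polymerase II, so it is low at the 5′ end of a transcribed gene and builds up towards the 3′ end.

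The profiles were made by CUT&Tag, in which an antibody directs a transposase to cut and tag the DNA beside the marked histone. Treg cells, the Foxp3+ CD4 T cells that restrain immune responses, were sorted as CD3+CD4+Foxp3-YFP+ cells from the large intestine of littermate C57BL/6 mice at 2 weeks of age, 60000 cells pooled from 3 to 5 mice for each library. The 2 Ctrl libraries came from Foxp3Cre-YFP Setd2 flox/+ mice, which also carry the Cre and 1 floxed allele, and the 2 KO libraries from Foxp3Cre-YFP Setd2 flox/flox mice. The Cre is driven by Foxp3, so the deletion is directed to Foxp3-expressing cells. In pooled cells, a change in the makeup of the sorted population and a change of signal per cell cannot be told apart.

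Libraries held 2395002 to 4712473 counts over all peaks, so the typical member was shallowly covered, with median counts of 8 and 13 for Ctrl 1 and Ctrl 2 and of 10 and 12 for KO 1 and KO 2. Promoter peaks of 6 T and Treg cell genes (Cd3e, Cd3g, Cd4, Foxp3, Il2ra and Ctla4) summed to between 816 and 1314 counts-per-million units (CPM) in a library. The lists for other cells were far lower, with 18.7 to 26.1 CPM for 6 B cell genes, 6.84 to 13.6 CPM for 6 myeloid genes, 14 to 21.1 CPM for 6 epithelial genes, 0 to 4.07 CPM for 5 stromal genes and 21.5 to 31.3 CPM for 5 cytotoxic or innate lymphoid genes. Of these lists the myeloid, stromal and lymphoid ones had no promoter peak at 4, 4 and 3 genes, Csf1r, Lyz2, Col1a1, Cd8a and Eomes among them. The 47 to 81.9 CPM of 4 endothelial genes came almost wholly from Pecam1, which T cells also express. CPM here are relative to the counts in tested peaks after TMM scaling, a scaling that equalises the bulk of peaks between libraries.

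Shown first are the central 300 bases of 6 members, read on the strand of the gene from the mm10 (GRCm38) reference. Il2ra, Foxo3, Ikzf2 and Bach2 belong to the Treg identity list read below. By CPM per kb of their strongest tested member they take places 1, 2, 4 and 5 in it. The gene in place 3, Nt5e, is not printed. Its peak had a log2 fold change (KO minus Ctrl) of -0.052, while the peaks of these 4 genes had positive ones. Zmiz1 and Slc30a6 carry the members with the smallest unadjusted p in either direction. Capitals mark matches, on either strand, to the motifs searched: TGANTCA for AP-1, TGTGGTT for RUNX, ACAGGAAG for ETS, AGATAAG for GATA factors, CTTTGAT for TCF7/LEF1, TGACGTCA for CRE, and for NF-kB GGGA followed by 4 free bases and CC. No letters are in capitals where none matched.
Il2ra, intron 1, chr2:11657753-11658052, plus strand, RUNX then TCF7/LEF1: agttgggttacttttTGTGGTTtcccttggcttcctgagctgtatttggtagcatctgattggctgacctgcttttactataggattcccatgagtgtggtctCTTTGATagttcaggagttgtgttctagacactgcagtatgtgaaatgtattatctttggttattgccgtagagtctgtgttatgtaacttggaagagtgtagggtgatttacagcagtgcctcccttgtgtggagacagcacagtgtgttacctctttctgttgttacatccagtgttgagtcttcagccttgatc
Foxo3, intron 2, chr10:42269046-42269345, minus strand, AP-1: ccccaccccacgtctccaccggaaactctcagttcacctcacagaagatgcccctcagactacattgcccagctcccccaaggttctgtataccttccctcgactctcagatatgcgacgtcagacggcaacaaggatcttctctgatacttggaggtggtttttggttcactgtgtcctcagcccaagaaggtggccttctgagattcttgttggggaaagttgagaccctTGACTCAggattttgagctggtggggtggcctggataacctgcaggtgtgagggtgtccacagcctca
Ikzf2, intron 3, chr1:69641515-69641814, minus strand, NF-kB: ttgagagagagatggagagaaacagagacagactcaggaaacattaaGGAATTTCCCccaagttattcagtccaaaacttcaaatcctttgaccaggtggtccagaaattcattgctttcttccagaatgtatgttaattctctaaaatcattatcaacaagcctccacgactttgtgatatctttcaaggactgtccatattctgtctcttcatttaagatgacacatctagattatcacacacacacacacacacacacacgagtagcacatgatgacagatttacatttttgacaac
Bach2, intron 2, chr4:32343381-32343680, plus strand, RUNX: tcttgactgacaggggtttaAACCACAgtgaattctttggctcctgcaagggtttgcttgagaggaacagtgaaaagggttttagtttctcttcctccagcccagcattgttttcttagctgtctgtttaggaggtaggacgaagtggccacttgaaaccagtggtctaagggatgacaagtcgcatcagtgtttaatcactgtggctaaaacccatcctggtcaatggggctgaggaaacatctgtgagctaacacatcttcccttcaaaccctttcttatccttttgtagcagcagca
Zmiz1, intron 2, chr14:25506880-25507179, plus strand, AP-1: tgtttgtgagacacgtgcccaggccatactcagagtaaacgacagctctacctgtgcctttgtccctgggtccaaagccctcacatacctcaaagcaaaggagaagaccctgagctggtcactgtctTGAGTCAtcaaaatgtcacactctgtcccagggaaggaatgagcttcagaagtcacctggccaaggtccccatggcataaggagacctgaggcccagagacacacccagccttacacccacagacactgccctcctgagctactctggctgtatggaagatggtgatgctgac
Slc30a6, intron 3, chr17:74404375-74404674, plus strand, no motif: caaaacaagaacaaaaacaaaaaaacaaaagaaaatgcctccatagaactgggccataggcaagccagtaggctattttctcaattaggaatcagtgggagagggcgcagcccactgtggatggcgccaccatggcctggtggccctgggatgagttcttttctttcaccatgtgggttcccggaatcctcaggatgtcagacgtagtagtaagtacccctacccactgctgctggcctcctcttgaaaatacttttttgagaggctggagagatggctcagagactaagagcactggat

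The members were mostly intronic. Numbered along the longest transcript of the gene, 8436 of them (49.8%) had their midpoint in intron 1, 20.5% in intron 2 and 8.39% in intron 3, and 1265 (7.47%) overlapped an exon of any transcript. Of 19994 middle-third peaks 16.3% were in intron 1, and of 22616 last-third peaks 2.84%, with 30.6% of the latter overlapping an exon. Members lay at a median of 13.5 kb from the nearest TSS, 62.6% of them more than 10 kb away. They came in groups, since 12475 members (73.7%) had another member within 5 kb.

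Median width was 462 bp (quartiles 349 and 770 bp), and the members covered 11.2 Mb. Their median GC content of 46.2% was lower than the 47.8% of last-third peaks and the 51.5% of peaks of the same width range at promoters (within 3 kb of a TSS). They held a median of 8.86 CpG per kb against 19.8 at promoters. A median of 18.2% of their bases was repeat-masked, against 12.3% in last-third peaks and 10.8% at promoters.

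In the central 300 bases AP-1, ETS, GATA and TCF7/LEF1 were about as frequent as in all narrow peaks, members included. AP-1 was found in 9.35% of members and 9.41% of all 120083 peaks narrower than 3000 bp, ETS in 4.52% and 4.49%, GATA in 3.88% and 3.8%, and TCF7/LEF1 in 4.76% and 4.43%. RUNX, the motif of factors that act with Foxp3, was in 8.29% of members and 7.44% of all narrow peaks. It was in 7.24% of last-third peaks and 5.76% of promoter peaks. The NF-kB pattern, the least specific of these since 4 of its letters are free, was in 11.3% of members and 14.1% of all narrow peaks. It was in 13.6% of last-third peaks and 19.7% of promoter peaks. CRE was in 0.224% of members, 0.337% of all narrow peaks and 0.814% of promoter peaks. None of the motif definitions contains another, but matches to AP-1 and CRE can share bases with matches to other motifs. Among tested members, the 20% highest in CPM per kb held RUNX in 10.8% and ETS in 6.96%, against 7.89% and 4.68% of the 20% lowest. AP-1 (12.1% against 7.94%), NF-kB (13.6% against 10.9%) and GATA (4.59% against 3.4%) were also more frequent in the highest. TCF7/LEF1 was less frequent there (3.95% against 4.59%), and CRE was at 0.197% in both.

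Peaks were less dense here than further along the gene. Outside the 3 kb around TSSs, first-third sequence held 61.2 peaks per Mb over 277 Mb, middle-third sequence 65.6 and last-third sequence 73.1. Levels per length did not differ in a like direction in every library. The median member stood at 6.99, 7.9, 7.57 and 5.95 CPM per kb in Ctrl 1, Ctrl 2, KO 1 and KO 2, and the median last-third peak at 6.44, 8.73, 6.18 and 5.39 CPM per kb in the same order. First-third peaks were thus higher in 3 libraries and lower in Ctrl 2, and the log2 ratios ran from -0.15 in Ctrl 2 to 0.29 in KO 1 (exact sign-flip test over 4 libraries, two-sided p = 0.5). Against promoter peaks the members were lower in all 4 libraries, by log2 ratios of -0.53, -0.25, -0.45 and -0.68 (same exact sign-flip test, p = 0.125, the smallest that 4 libraries allow).

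Genes with members more often had a promoter peak. Of the 5118 genes with no member 45.5% had a peak at a TSS of their own, compared with 67.9% of the 1947 genes with 1 member, 82.9% of the 2029 with 2 to 4, 92.5% of the 773 with 5 to 9 and 95.5% of the 292 with 10 or more. The order was also seen within classes of gene length. Among genes of 20 to 50 kb a promoter peak was found for 86.6% of those with a member and 49.9% of those without, and among genes over 100 kb for 66.5% and 28.3%.

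The genes with the most members were Gm20388 with 89, Fgfr2 with 54, Elmo1 with 51, Atxn1 with 45 and Mad1l1 with 40. The first 2 of these are gene models that span 4435 kb and 2961 kb in the annotation, and 28 and 20 of their members lie inside another protein-coding gene, so their counts mix several genes. Elmo1, which encodes an activator of Rac signalling, is 518 kb long and held 29.6 members per 100 kb of its first-third part. Its members ranged from 4 to 16.2 CPM per kb, with a median of 7.66, and summed to 341, 310, 333 and 362 CPM in Ctrl 1, Ctrl 2, KO 1 and KO 2. The genotypes overlapped. Atxn1, the gene of a chromatin-binding repressor, held 32.5 members per 100 kb, which summed to 449 and 468 CPM in Ctrl and 523 and 578 CPM in KO. Both KO sums were higher, and 28 of its 33 tested members had a positive fold change, but the sum did not pass the test (log2 fold change 0.26 ± 0.20 SE, edgeR adjusted p = 0.905). For Mad1l1, a gene of the mitotic checkpoint, the sums were 189 and 287 CPM in Ctrl and 167 and 191 CPM in KO, and the genotypes overlapped.

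By level per length, the leading member was a 453-bp peak in Sfi1 with 168 CPM per kb. Sfi1 has near-identical copies elsewhere in the mouse genome, so its count is uncertain, and its CPM of 114, 61.3, 85 and 43.8 in Ctrl 1, Ctrl 2, KO 1 and KO 2 differed as much within as between genotypes. The next genes were Mical3 with 49.6 CPM per kb, Patj with 29, Clasp1 with 28.9, Nebl with 25.9 and Gm44503 with 25.9. Mical3 is an actin-oxidising enzyme, Patj a polarity scaffold, Clasp1 a microtubule-stabilising protein and Nebl an actin-binding protein. At the Nebl peak (chr2:17702117-17705051, intron 2) CPM were 76 and 57.1 in Ctrl and 86.4 and 85.1 in KO, a log2 fold change of 0.37 ± 0.29 (SE), which was 0.59 without Ctrl 1 and 0.17 without Ctrl 2. At the Patj peak (chr4:98435454-98437684) they were 72.4 and 58.3 in Ctrl and 62.2 and 65.9 in KO. None of these 6 peaks had an adjusted p below 0.998.

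The question put by the design was whether loss of Setd2 in Treg cells changed H3K27ac at these regions. A member entered the test when at least 2 libraries had 10 counts or more, which 10136 members (59.8%) in 3374 genes did. No member passed the edgeR quasi-likelihood test at an adjusted p of 0.05, and the smallest adjusted p was 0.661. Over all 74550 tested peaks 1 passed (0.00134%). Unadjusted p fell below 0.05 with a higher level in KO for 134 members (1.32%) and with a lower level for 310 (3.06%), close to the 1.45% and 2.79% over all tested peaks. DESeq2 also called no member. At the unadjusted threshold it gave 57 higher and 159 lower of the 10136 members, beside 445 and 1023 of all 74550 tested peaks, a similar rate. KO and Ctrl libraries did not overlap at 3560 tested members (35.1%), beside 33.3% of all tested peaks.

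**Figure D1:**
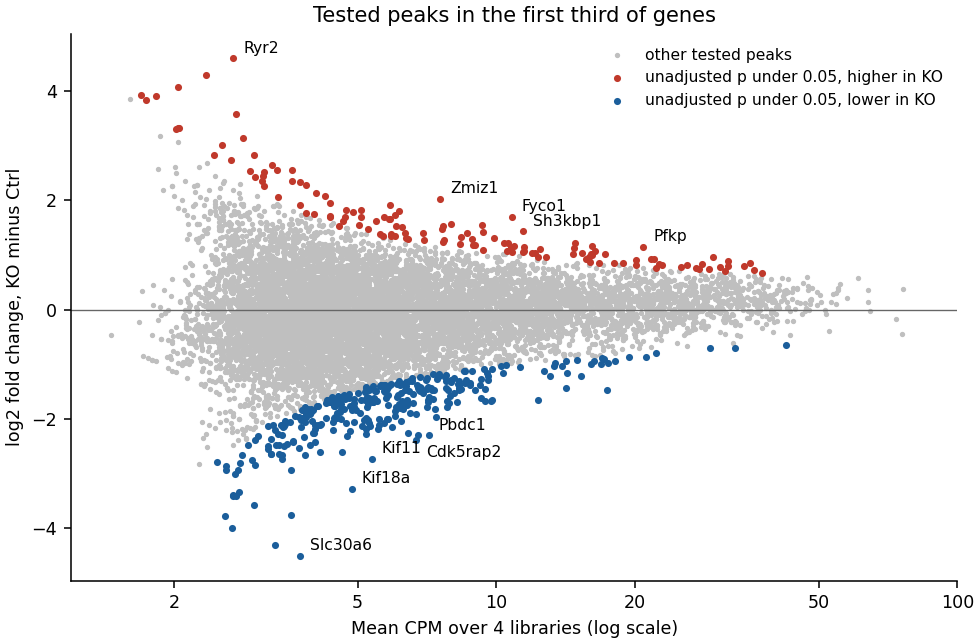
Log2 fold change (KO minus Ctrl, edgeR) of the 10136 tested first-third peaks against their mean CPM on a log axis. Red points (134) and blue points (310) had an unadjusted p below 0.05, none passed after adjustment, and the 10 named genes are the 5 in each direction that led among peaks with no overlap of the genotypes.

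The 5 members higher in KO with the smallest unadjusted p lay in Zmiz1, Fyco1, Ryr2, Pfkp and Sh3kbp1. At the Zmiz1 peak (chr14:25506692-25507368, intron 2 of the gene of a transcriptional coactivator), the Ctrl libraries read 0.452 and 5.06 CPM and the KO libraries 12.7 and 12. Ctrl 1 rested on 1 count, so the Ctrl mean of 2.76 ± 3.26 (SD, n = 2) is poorly set while the KO mean was 12.3 ± 0.487. The fold change was 2.02 ± 0.62 (log2, SE, edgeR adjusted p = 0.998), with 1.28 without Ctrl 1 and 4.64 without Ctrl 2.

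Fyco1, an adaptor that moves autophagosomes, had a peak (chr9:123839761-123840830) with 5.43 and 4.76 CPM in Ctrl and 15.3 and 17.7 CPM in KO. Its pairs of libraries lay close together, and the log2 fold change was 1.70 ± 0.53 (adjusted p = 0.998). Pfkp, a phosphofructokinase of glycolysis, had a peak in intron 1 (chr13:6639380-6640863) with 10.9 and 14.9 CPM in Ctrl and 27.6 and 29.9 CPM in KO. Sh3kbp1, an endocytic adaptor, read 4.07 and 8.04 CPM in Ctrl and 16.4 and 17.3 CPM in KO. The Ryr2 peak, 108 kb into the gene of a calcium release channel, had counts of 0 and 1 for Ctrl and of 21 and 11 for KO. It passed the count filter only through the KO libraries, so no fold is given.

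The 5 members lower in KO with the smallest unadjusted p lay in Slc30a6, Kif18a, Cdk5rap2, Pbdc1 and Kif11. The Slc30a6 peak (chr17:74404166-74404884, intron 3 of a zinc transporter gene, 70.1% repeat-masked) had counts of 17 and 23 for Ctrl but 0 and 2 for KO, or 7.69, 6.84, 0 and 0.479 CPM. It passed the count filter only through the Ctrl libraries, so no fold is given. It had the smallest p of any member (edgeR adjusted p = 0.661). Kif18a and Kif11 encode mitotic kinesins, and their peaks too passed the count filter only through the Ctrl libraries. The Kif18a peak (chr2:109288226-109289117, intron 2) read 10.9 and 6.84 CPM in Ctrl and 0.745 and 0.958 CPM in KO, and the Kif11 peak (chr19:37386161-37386870, intron 4) read 8.14 and 10.7 CPM in Ctrl and 0.745 and 1.92 CPM in KO. At the peak of Cdk5rap2, a centrosomal protein, CPM were 10.9 and 11.9 in Ctrl and 0.373 and 3.59 in KO. All of these were weak peaks, with a Ctrl mean of 12 CPM or less.

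**Figure D2:**
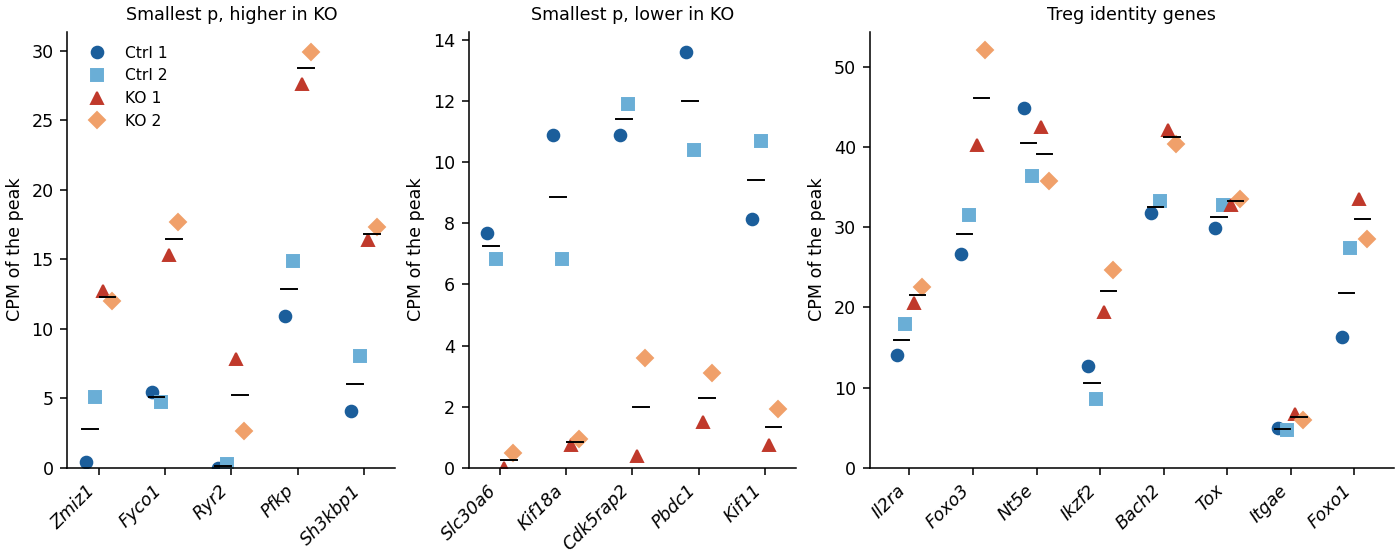
CPM of named first-third peaks in each library (points) with the mean of each genotype (black bars, n = 2), all axes from 0. The 5 peaks on the left were higher and the 5 in the centre lower in both KO libraries. For genes of the Treg identity list on the right, both KO libraries were higher except at Nt5e, with almost no gap at Tox.

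Summed over a gene, 3759 genes had enough counts in their first-third peaks to test, and none passed after adjustment (smallest adjusted p = 0.498). Among all 18489 sums over promoters and gene parts none passed either (0%). Unadjusted p fell below 0.05 for 38 first-third sums higher in KO (1.01%, beside 0.649% of all sums) and 185 lower (4.92%, beside 6.03%). The strongest lower sums were those of Cit, Mrpl3 and Mtor. Cit, the citron kinase of cytokinesis, had 66.1 and 101 CPM over 13 members in Ctrl and 35.4 and 37.4 CPM in KO, a fold change of -1.20 ± 0.31 (log2, SE, edgeR adjusted p = 0.498). Its middle-third and last-third sums read -1.66 and -1.39 while its promoter read -0.19.

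Mtor, the kinase of the nutrient-sensing complexes, had 54.7 and 63.1 CPM over 12 members in Ctrl and 20.1 and 30.4 CPM in KO, a log2 fold change of -1.21 ± 0.34 (SE). Its promoter stood at 0.16, its middle-third sum at -0.57 and its last-third sum at -0.44. Mrpl3, a protein of the mitochondrial ribosome, had 23.1 and 22.9 CPM in Ctrl and 7.08 and 5.75 CPM in KO over 3 members, with fold changes of -1.08 at its promoter, -1.09 in the middle-third sum and -1.64 in the last-third sum. On the other side, Pitpnc1, a phosphatidylinositol transfer protein, had 209 and 243 CPM over 24 members in Ctrl and 332 and 346 CPM in KO, a log2 fold change of 0.59 ± 0.22. Its promoter stood at 0.75, its middle-third sum at 0.11 and its last-third sum, in the other direction, at -1.64. Adam19, a membrane metalloprotease, went from 17.2 and 20.8 CPM to 35.4 and 40.7 CPM (edgeR adjusted p = 0.572). The sum of Dennd2c rested on 1 member with counts of 1 and 0 for Ctrl and of 15 and 14 for KO. It passed the count filter only through the KO libraries.

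Setd2 itself held 1 member, in its intron 1 (chr9:110536571-110536901), with counts of 5 and 12 for Ctrl and of 10 and 12 for KO. Its CPM of 2.26 and 3.57 against 3.73 and 2.88 overlapped. Whether this peak lies in the floxed stretch is not given in the sources used here, so it does not check the labels.

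The median log2 fold change over tested members was -0.053 (quartiles -0.53 and 0.37), compared with -0.012 over all tested peaks, -0.13 in middle-third peaks and -0.25 in last-third peaks. By library, the median member deviated from the mean of the 4 libraries on the log2 scale by 0.012 and 0.060 for Ctrl and by -0.010 and 0.009 for KO. Both Ctrl values were above both KO values, but by as little as 0.003. Without Ctrl 2 the median became 0.027, beside 0.046 over all tested peaks.

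Among the members themselves the difference grew with the relative position in the gene. Over 3 equal steps from the 5′ end it was -0.004, -0.054 and -0.084. By distance to the nearest TSS there was no such order, with -0.083 at 3 to 5 kb, -0.097 at 5 to 10 kb, 0.001 at 20 to 50 kb and -0.15 beyond 100 kb. The slope came from 2 libraries, Ctrl 2, where the deviation went from -0.013 in the first 10% of the gene to 0.082 in the third 10% and 0.27 in the last 10%, and KO 1, where it went from 0.053 to -0.032 and -0.16. Ctrl 1 and KO 2 stayed between -0.031 and 0.035 along the whole gene. The first-minus-last difference was 0.036 and -0.21 for Ctrl and 0.13 and 0.022 for KO, so the genotypes overlapped, and without Ctrl 2 the medians of first-third and last-third peaks were 0.027 and -0.007.

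**Figure D3:**
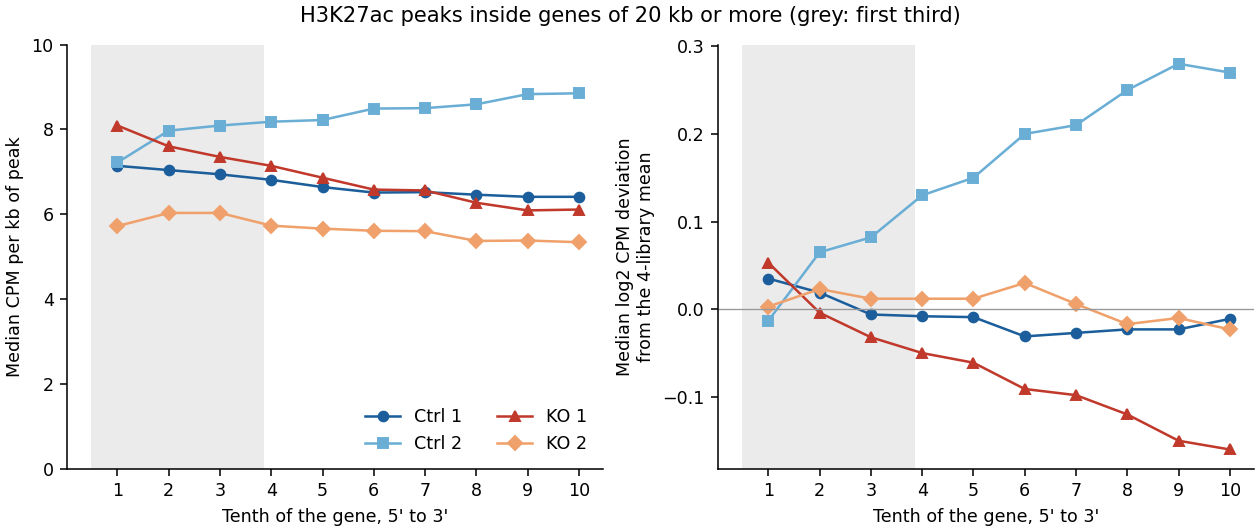
Median CPM per kb (left) and median log2 CPM deviation from the mean of the 4 libraries (right, tested peaks) of gene body peaks in 10 equal parts of the gene, 1 line for each library, with the first-third part in grey. Ctrl 2 rises and KO 1 falls from 5′ to 3′ while Ctrl 1 and KO 2 stay near 0 on the right.

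In the 3963 genes with peaks in both regions, tested or not, first-third peaks held 49.06% of the joint counts in Ctrl 1 (95% exact binomial interval 48.9 to 49.22), 45.64% in Ctrl 2, 50.62% in KO 1 and 49.68% in KO 2. The means were 47.3% ± 2.42 in Ctrl and 50.1% ± 0.671 in KO (SD, n = 2), without overlap. Against promoters of the same genes the share was 32.79% and 34.76% in Ctrl and 32.55% and 30.83% in KO. As a share of counts in all peaks, the members held 8.797% and 8.835% in Ctrl and 8.521% and 7.976% in KO, where all peaks narrower than 3000 bp together held 71.9% and 69.79% in Ctrl and 69.97% and 64.57% in KO. As a share of gene body counts the members held 21.56% and 19.56% in Ctrl and 21.42% and 19.42% in KO, with overlap. In this share, libraries of the same replicate number lay closer together than those of the same genotype. Intervals cover counting error only. With 2 libraries against 2, an exact permutation test cannot give a two-sided p below 0.333, and these shares are given as descriptions.

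The members were also read by intron. Tested members in intron 1 (5296) had a median log2 fold change of 0.028 and those in later introns (4318) of -0.16, a difference of 0.19. In intron 1 the Ctrl libraries deviated by -0.008 and 0.012 and the KO libraries by 0.013 and 0.059 at the median. In later introns it was 0.035 and 0.14 in Ctrl and -0.049 and -0.053 in KO. Intron 1 minus later introns came to -0.043 and -0.13 for Ctrl and to 0.062 and 0.11 for KO, so the genotypes did not overlap. It stayed between 0.15 and 0.25 when any 1 library was left out.

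At the unadjusted threshold, 64 intron 1 members were higher (1.21%) and 98 lower (1.85%) in KO, against 62 higher (1.44%) and 188 lower (4.35%) in later introns. The shares of higher members were near the 1.45% of all tested peaks in both classes. The classes were alike in median GC content (46.2% and 46%), width (476 and 452 bp) and gene length (98.3 and 102 kb). In each of 3 equal steps along the members' part of the gene the difference was 0.18 to 0.21, and in all 5 classes of GC content it was positive (0.055 to 0.32), with no overlap of the genotypes in any of these. It was 0.31 in genes of 20 to 50 kb and 0.069 in genes over 500 kb, where the libraries overlapped, as they did for members more than 50 kb from a TSS. For members of 300 bp or less (141 and 88) it was -0.14.

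The same split was seen further along the gene. Intron 1 peaks had a median of 0.059 among middle-third peaks (2080) and 0.041 among last-third peaks (408), while peaks of later introns had -0.17 and -0.25. The middle-third difference was -0.028 and -0.19 in Ctrl and 0.081 and 0.096 in KO. The division was noticed in these data before it was measured, and all peaks share the same 4 libraries. Among members with at least 50 counts in 2 libraries the difference was 0.022.

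**Figure D4:**
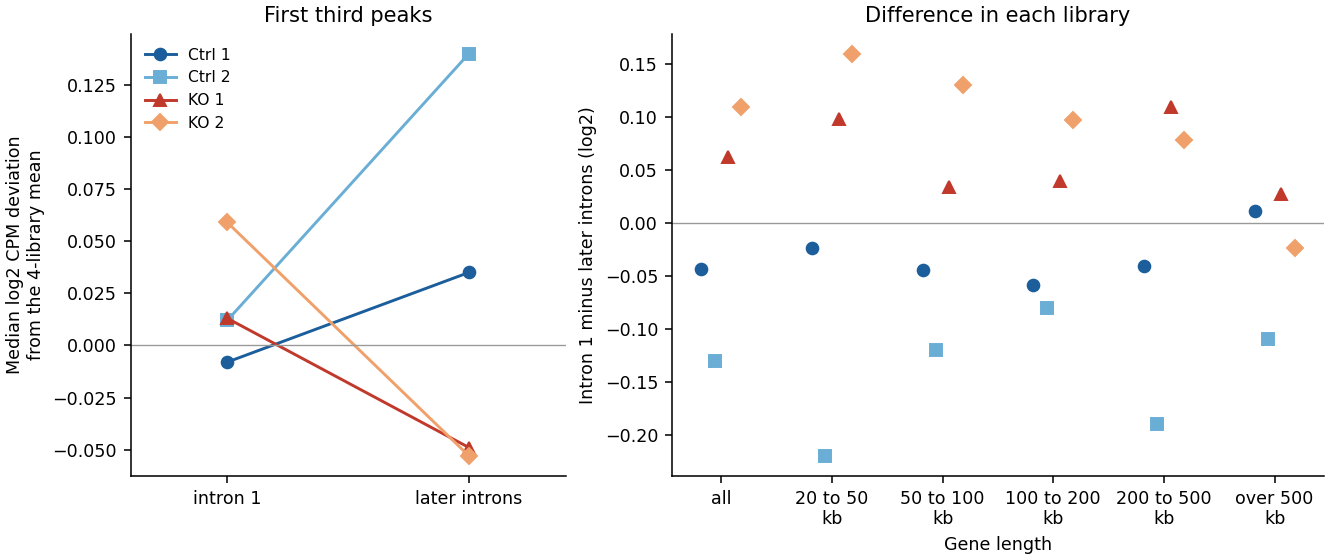
Median log2 CPM deviation from the mean of the 4 libraries for tested first-third peaks in intron 1 and in later introns (left), and the difference between these classes in each library for all genes and by gene length (right). On the right, both KO libraries lie above both Ctrl libraries in every length class except genes over 500 kb; on the left, they lie below them in later introns.

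The difference also moved with peak strength and base composition. In the 20% of tested members with the highest mean CPM the median fold change was 0.095. At the unadjusted threshold 53 of these 2027 members were higher and 27 lower, beside 1.45% and 2.79% of all tested peaks. In the 4 lower classes of equal size the median fold change was between -0.17 and -0.071. By GC content it rose from -0.21 below 40% to 0.049 above 55%. Members below 40% GC deviated by 0.14 in Ctrl 1 and -0.091 in KO 2, and those above 55% by -0.14 and 0.13, so that Ctrl 1 and KO 2 stood at the ends of this axis. The part of base composition in the fold changes was not tested further, and with an offset for GC content fitted in each library the median over members was 0.001.

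The first gene list, named Treg identity, also holds genes that act in T cells more widely, such as Bach2, Tox, Foxo1 and Lef1. The list of 32 genes had 26 of at least 20 kb, 17 of them with 145 members in all. Of the 107 members tested, 68 (63.6%) had a positive fold change and the median was 0.17, beside 46.7% and -0.053 over all tested members. The median deviation was -0.10 and -0.068 in Ctrl and 0.092 and 0.11 in KO, without overlap. None passed the test, 3 (2.8%) had an unadjusted p below 0.05 with a higher level in KO and 0 with a lower one, beside 1.45% and 2.79% of all tested peaks. Bach2 and Ikzf2 held 29 and 10 of the tested members, and of the other 68 members 37 (54.4%) had a positive fold change and the median was 0.077. Of the wider T cell genes, Bach2, Tox and Foxo1 had 23 of 29, 13 of 22 and 4 of 8 tested members positive. Apart from these 3 genes, those with the most tested members were Ikzf2 (8 of 10 positive), Nrp1 (4 of 8) and Nt5e (1 of 6). The shift of the list is thus not one of Treg genes in general. With each library left out in turn the median of the list lay between 0.091 and 0.18, with total counts as library size it was 0.089, and over the 23 members with at least 50 counts in 2 libraries it was 0.058. Last-third peaks of the same list (120 tested) had a median of 0.25, beside -0.25 over all tested last-third peaks.

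Ikzf2, the gene of Helios, a factor of thymus-derived Treg cells, had 10 members. The strongest (chr1:69641185-69642146, intron 3), whose centre is printed above, had 12.7 and 8.63 CPM in Ctrl and 19.4 and 24.7 CPM in KO, a log2 fold change of 1.07 ± 0.44 (SE, edgeR adjusted p = 0.998). The sum over its members was 151 and 136 CPM in Ctrl and 153 and 198 CPM in KO, with a small gap. Foxo3, a forkhead factor of T cell quiescence, had 26.7 and 31.5 CPM at its stronger member (chr10:42268182-42270210) in Ctrl and 40.2 and 52 CPM in KO (0.66 ± 0.33, adjusted p = 0.998). Bach2, a repressor that keeps T cells from effector fates, had 38 members, 23 of the 29 tested with a positive fold change, and its strongest (chr4:32342327-32344736) read 31.7 and 33.3 CPM in Ctrl and 42.1 and 40.3 CPM in KO.

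The strongest first-third peak of any Treg identity gene per length was in intron 1 of Il2ra, the gene of the high-affinity chain of the IL-2 receptor (chr2:11657459-11658347, 21.1 CPM per kb). It had 14 and 17.9 CPM in Ctrl and 20.5 and 22.5 CPM in KO, a log2 fold change of 0.42 ± 0.41, which was 0.27 without Ctrl 1. Tox, a regulator of T cell exhaustion, held 35 members, and its strongest read 29.9 and 32.7 CPM in Ctrl and 32.8 and 33.5 CPM in KO, nearly alike. Nt5e, the gene of the ectoenzyme CD73, had 44.8 and 36.3 CPM in Ctrl and 42.5 and 35.7 CPM in KO at its strongest member, and 5 of its 6 tested members had a negative fold change. The strongest members of Itgae, the gene of the CD103 integrin chain, and of the forkhead factor Foxo1 were higher in both KO libraries, with fold changes of 0.38 ± 0.68 and 0.48 ± 0.36. The latter was 0.18 without Ctrl 1 and 0.92 without Ctrl 2. Foxp3, Gata3, Prdm1, Il1rl1, Tcf7, Batf, Cd28 and Tnfrsf9 are long enough but had no member.

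Genes of T cell receptor signalling had 231 tested members, 123 (53.2%) with a positive fold change and a median of 0.059. T cell transcription factors had 162 tested members with a median of 0.082, and cytokine and TGF-beta receptors had 34 with a median of 0.11. Without KO 2 the medians of these 3 lists fell to between -0.025 and 0.000, while the median over all tested members fell to -0.089. The list of other lineages had 8 tested members only.

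Of 177 tested members in genes of chromatin enzymes 70 (39.5%) had a positive fold change, beside 46.7% of all tested members, and the median was -0.12. At the unadjusted threshold 0 were higher and 6 (3.39%) lower, near the 3.06% of all tested members. Ctrl 2 deviated most (0.19, beside 0.009 in Ctrl 1, -0.11 in KO 1 and -0.001 in KO 2). Without Ctrl 2, 87 were positive and the median was -0.014, beside 0.027 over all tested members. No sum of the list passed the test, and 5 of 37 (13.5%, beside 6.03% of all sums) were below the unadjusted threshold and lower in KO, with Suz12, Crebbp, Smarca4 and Nsd2 among them (edgeR adjusted p from 0.538 to 0.744). Of the 37 sums 11 had a positive fold change, such as those of Ezh2 (0.37 ± 0.69), Hdac7 (0.21 ± 0.30) and Dnmt1 (0.17 ± 0.31). Suz12, a core subunit of the H3K27 methyltransferase complex PRC2, had 13.6 and 11.3 CPM in Ctrl and 2.24 and 2.88 CPM in KO (-2.25 ± 0.74). Crebbp, an acetyltransferase that places H3K27ac, had 11.8 and 11.3 CPM in Ctrl and 2.24 and 4.79 CPM in KO (-1.67 ± 0.72). Nsd2, which places dimethylation on H3K36, had 29 and 48.2 CPM in Ctrl and 24.6 and 21.3 CPM in KO (-0.76 ± 0.37).

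Lists named by the study were read for their first-third peaks. The mRNA lists came from large intestinal Treg cells of adult mice, unlike the 2-week-old mice used here, and the colonic and splenic Treg signatures from published data of other mice. Genes with more mRNA in KO had 648 tested members, 55.6% positive, with a median of 0.10, and genes with less mRNA in KO had 385, 39.2% positive, with a median of -0.14. In the former the median deviation was 0.039 and -0.085 in Ctrl and 0.12 and -0.006 in KO, with overlap. In the latter it was 0.061 and 0.12 in Ctrl and -0.092 and 0.006 in KO, without overlap. The first median was -0.027 without KO 1, where the median over all tested members was -0.10. The second was -0.050 without Ctrl 2, where that over all tested members was 0.027. In last-third peaks of these mRNA lists the medians were -0.055 and -0.35, beside -0.25 over all tested last-third peaks. The colonic Treg signature (446 tested members) had a median of 0.070 and ranged from -0.15 to 0.24 with a library left out, and the splenic signature (436) had a median of 0.001.

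**Figure D5:**
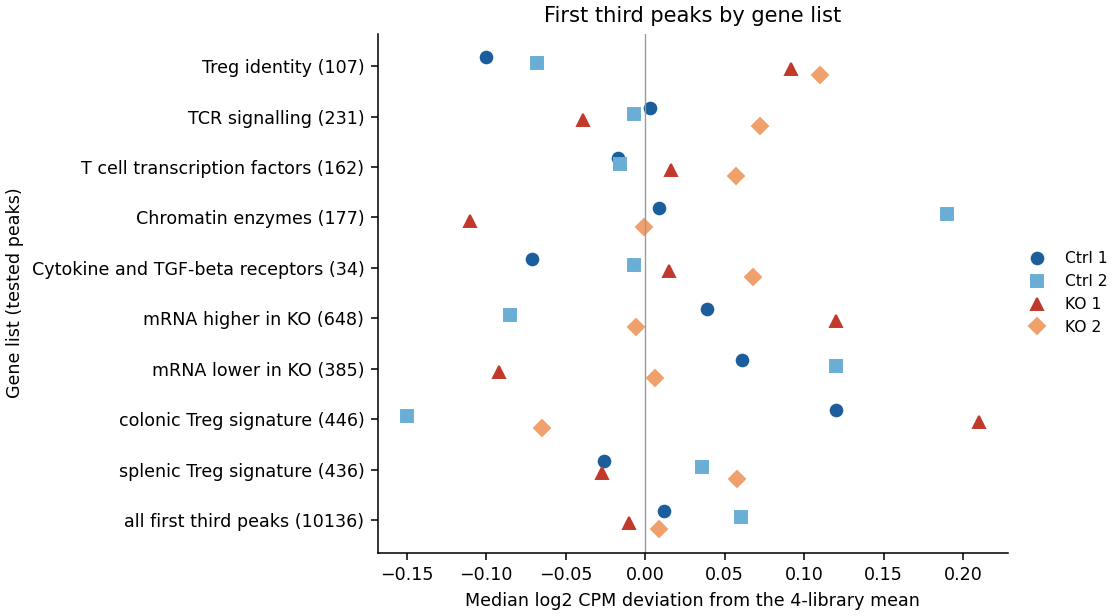
Median log2 CPM deviation from the mean of the 4 libraries over tested first-third peaks of each gene list, 1 point for each library, with the number of tested peaks in brackets. Both KO libraries lie above both Ctrl libraries for Treg identity genes, T cell transcription factors, and cytokine and TGF-beta receptors. They lie below both Ctrl libraries for chromatin enzymes, genes with less mRNA in KO and all first-third peaks.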

How the data were processed

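H3K27ac CUT&Tag libraries from 2 Ctrl and 2 KO pools of large intestinal Treg cells were used, 1 column each; the IgG library was not analysed here. According to the study's methods, the authors aligned reads to mm10 with Bowtie2, kept unique reads, removed duplicates, called peaks against IgG with MACS2, merged them with bedtools and counted reads in each; the deposited values are these raw counts. Tool versions are not given in the sources used here. Both mates of a pair may have been counted, so halved counts were tried too.

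Peaks were placed on GENCODE M21 and the GRCm38 sequence. TSSs were those of basic protein-coding transcripts and the 5′ ends of protein-coding gene models, measured from the nearest peak edge; the gene ends were added after peaks beside them were seen among the members. Peaks with at least 10 counts in 2 libraries were tested with edgeR 4.0.16 (quasi-likelihood, TMM, Benjamini-Hochberg over all 74550 tested peaks; R 4.3.3, limma 3.58.1), gene region sums likewise, and DESeq2 1.42.0 was an alternative. Library summaries used Python 3.11.15 and scipy 1.17.1. The fit was tested on simulated data. Labels name replicates by number only. In the peak fit, edgeR p-values used a spread between pools taken from the trend over all peaks, not from each peak alone. Each SE was derived from the fold change and the test statistic, so it is no separate measure of a peak's own spread. Members and lists were chosen with earlier results of these data known. Genes were named by fixed rules: the 6 highest peaks per length, the 5 smallest p in each direction without overlap, the 5 genes with the most members, 8 Treg identity genes by level, 3 region sums in each direction, and Setd2. Single genes of the chromatin list, and the intron classes, were picked after their values were seen. Some genes of the lists are not reported here.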

Additional observations from a re-analysis of the deposited data

How the results depend on the processing

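No member was called in any fit except the one with a replicate block. There, of 10136 tested members, 3 were called higher (Zmiz1, Fyco1 and Larp1) and 8 lower in KO. Of 3759 first-third sums, 20 were called higher and 82 lower. The shares over all tested peaks and all sums with the block are not given here, so its counts are not read as a trait of the members. Among the sums named above the block gave adjusted p from 3.08e-06 (Cit) to 0.0187 (Adam19), and 0.0893 for Dennd2c. Over peaks the deviations of Ctrl 1 and KO 1 from their group means correlated with r = 0.257, but the labels do not say what a shared replicate number marks and there are only 2 pairs, so whether the numbers pair the libraries is not known. With the block, unadjusted p fell below 0.05 for 317 members higher and 509 lower, and for 159 sums higher and 374 lower. These counts were otherwise 57 and 159 for members with DESeq2, 89 higher with total counts as library size, and 16 and 18 with at least 50 counts in 2 libraries. For sums they were 20 and 120 with DESeq2, 21 higher with total counts, and 19 and 82 with at least 50 counts. With 1 library left out, 61 (without KO 1) to 237 (without Ctrl 2) members were higher, 15 to 44 sums were higher and 113 to 185 lower. The cause was not tested.

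The median over members turned from -0.053 to 0.001 with the GC offset, an alternative chosen after seeing the data, was -0.003 with the abundance offset and -0.13 with total counts as library size (where the median of all tested peaks was -0.091), and lay between -0.10 and 0.027 with a library left out. First minus last kept its sign, from 0.034 to 0.31, as did the intron difference. Density and level ratios and the share of counts kept their direction under every other member rule. Named peaks with small fold changes turned sign: Patj 0.016 with any count (-0.18 to 0.14 with a library left out), Nt5e 0.042 with the GC offset (-0.20 to 0.10), Tox -0.029 with the abundance offset and -0.037 with at least 50 counts, and, with a library left out, Sfi1 (-1.01 to 0.061), Clasp1 (-0.86 to 0.055) and Setd2 (-0.12 to 0.52 for its peak, -0.12 to 0.53 for its sum). Median counts of 8 to 13 a member set the precision of single peaks, but the 1256 members with at least 50 counts in 2 libraries gave 0 calls too. Pools of mice hide the spread between animals.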
